A study of Saccharomyces cerevisiae S288C with 71 samples.

Results

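Messenger RNA of 8 Saccharomyces cerevisiae genes, TOR1, TOR2, KOG1, LST8, TCO89, SCH9, TAP42 and NPR1, was followed in 12 strains. They encode the kinases and subunits of TORC1 and 3 proteins through which it acts, were taken by gene symbol alone, and are 8 of the 5803 genes measured. All 8 were among the 5766 genes tested. TORC1, the target of rapamycin complex 1, is a protein kinase complex at the vacuole membrane that is active when nitrogen and carbon are plentiful. It drives ribosome synthesis and growth and restrains autophagy, stress responses and the use of poor nitrogen sources. It acts largely through the kinase Sch9 and through Tap42, a partner of protein phosphatase 2A. Its activity is set mostly on the proteins, which RNA levels do not show.

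The strains were S288C derivatives. The double mutants were coq2Δ ras2Δ, coq2Δ rts1Δ, coq2Δ tco89Δ, cox4Δ ras2Δ, cox4Δ rts1Δ and cox4Δ tco89Δ, the single mutants were coq2Δ, cox4Δ, ras2Δ, rts1Δ and tco89Δ, and the reference was wild type (wt). One label writes the coq2Δ rts1Δ strain as coq2Δ rts1dΔ. COQ2 and COX4 serve the electron transport chain, in coenzyme Q synthesis and as a subunit of cytochrome c oxidase. RAS2 (a small GTPase upstream of protein kinase A), RTS1 (a B-type subunit of the phosphatase PP2A) and TCO89 are the genes whose loss suppresses the starvation lethality of electron transport mutants, per the series' design text. All strains grew in shaken flasks of yeast nitrogen base with ammonium and glucose and were sampled at 0 h, in log phase, and at 12 and 16 h, across the diauxic shift of wild type. Each group had 2 libraries, which the labels call technical replicates, except cox4Δ rts1Δ at 16 h with 1. How the deletions were made, and how many isolates of each strain were used, is not given in the sources used here.

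Levels are given in TPM, the share of all transcripts in a library after correction for gene length, so that levels of different genes can be set side by side. Differences are log2 fold changes on the log2(TPM + 1) scale with a standard error (SE) from 1 limma model over all 71 libraries, and p-values are adjusted over all genes tested. A gene is said to have risen, fallen or passed the threshold where its change was 2-fold or more with an adjusted p below 0.05. P-values measure only the spread between libraries of the same group, which may be technical. For each gene this spread is pooled over all groups with 2 libraries, not taken from the groups compared alone. In bulk RNA, fewer cells that express a gene and less of its RNA per cell cannot be told apart. The sequencing depth is unknown, since TPM keeps no read counts.

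Libraries of a group correlated at 0.985 to 0.998 over all genes. The deleted genes were near the deposited floor of 0.1 TPM where the labels place a deletion, with a few exceptions. COX4 stood at 72.3 TPM in 1 cox4Δ tco89Δ library at 16 h and at 2.95 TPM in the other, against 283 to 3463 TPM in the 48 libraries with the gene. It stood at 10.8 TPM in 1 cox4Δ library at 16 h and at 2.46 TPM in the other, and at 8.57 TPM in the lone cox4Δ rts1Δ library at 16 h. In the other libraries of strains that lack them, COX4, COQ2, RAS2, RTS1 and TCO89 stood at no more than 3.18 TPM. At 12 h COQ2 was at 2.95 TPM in 1 coq2Δ rts1Δ library and at 2.27 TPM in 1 coq2Δ library. In wt at 12 h COQ2 was itself low, at 10.9 and 11.0 TPM. RTS1 at 12 h was at 1.76 TPM in 1 rts1Δ library and 1.97 TPM in 1 coq2Δ rts1Δ library, against 34.7 and 36.7 TPM in wt. TCO89 at 12 h was at 1.36 TPM in 1 tco89Δ library, against 17.6 and 17.8 TPM in wt. Members' calls in TPM that use the cox4Δ tco89Δ library with 72.3 TPM are also given without it. The mating type is not given in the labels.

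TPM also moves with the makeup of a library. A second scaling by median ratios shifted all genes by as much as 0.42 on the log2 scale between coq2Δ and wt at 16 h and by 0.46 between coq2Δ tco89Δ and coq2Δ at 16 h. It is named below where it ends a member's call or turns a member's direction, and where it ends the call of a listed gene. Log2 size factors under that scaling ran from -0.62 to 0.40 over the libraries.

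Each of the 8 genes has 1 coding exon and overlaps no other gene in the R64 annotation (build sacCer3). TOR1 (YJR066W) lies on chromosome X at 559416 to 566828 and TOR2 (YKL203C) on chromosome XI at 55935 to 63359 on the minus strand. KOG1 (YHR186C, VIII, 475999 to 480672, minus strand) and SCH9 (YHR205W, VIII, 509363 to 511837) share a chromosome. LST8 (YNL006W, XIV, 620067 to 620978) and NPR1 (YNL183C, XIV, 293137 to 295509, minus strand) share another. TCO89 (YPL180W) lies on XVI at 205248 to 207647 and TAP42 (YMR028W) on XIII at 327482 to 328582. TOR1 and TOR2 align at 69.2% identity over 6229 bases and their longest identical run is 19 bases. None of the 8 has a near-identical copy elsewhere in the genome.

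The 300 bases before each start codon were searched on both strands for the short motifs named below. The motifs were chosen with the values of these genes known. LST8 holds 2 matches to GAANNTTC, the inverted repeat of the element bound by the heat shock factor Hsf1, spaced by 2 bases. This element is shown because LST8 was the member with the largest change over time, and none of the other 7 windows holds it, against 11.5% of the 6001 windows of this length in the genome. The next gene on that side, SIS1, lies on the minus strand 501 bases from LST8, so the 2 genes run apart. The matches lie between them, and their position does not assign them to either gene. The bases in capitals are the matches.
LST8 (chrXIV:619886-619915, plus strand): tttccaGAAGTTTCtgGAACGTTCatataa

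AGGGG, the core of the stress response element bound by Msn2 and Msn4, is in 2 of the 8 windows, those of TOR1 and SCH9, against 22.2% of all windows. The 2 are shown since SCH9 was the effector with the most calls of double mutants against their electron transport parents. SCH9 carries it on the opposite strand, where it reads CCCCT. The TOR1 match also lies between 2 genes that run apart, since ARP3 is on the minus strand 257 bases from TOR1.
TOR1 (chrX:559242-559268, plus strand): aacttttgaaaAGGGGttctcgccatt
SCH9 (chrVIII:509183-509209, plus strand): ttcctaatttgCCCCTcttcgcttttt

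GATAAG, the core site of the GATA factors Gln3 and Gat1 that TORC1 restrains, is in 3 of the 8 windows, against 14.7% of all windows. The 3 are those of TOR1, TAP42 and NPR1. The site is shown for NPR1 and TAP42, the members of the nitrogen branch, and not for TOR1. In NPR1 it reads CTTATC, on the opposite strand. AGGGAT is in none of the 8 windows and in 9.23% of all, and CCAAT is in 3 of the 8 and in 41.8% of all. A match is a description of letters and says nothing about whether a factor binds there.
TAP42 (chrXIII:327285-327312, plus strand): aataagaatatGATAAGttctctatata
NPR1 (chrXIV:295772-295799, minus strand): tacccttatagCTTATCtcagaatatgg

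The 2 kinases and KOG1 were scarce and LST8 abundant. In wt at 0 h the order of mean levels was TOR2 with 4.76 TPM, TOR1 with 4.92, KOG1 with 7.96, TCO89 with 19.2, TAP42 with 24.8, NPR1 with 30.8, SCH9 with 45.4 and LST8 with 57.8 TPM. The libraries of TOR1 and TOR2 overlapped, and those of the other neighbours in this order did not. TOR1 stood above 7.21% of the genes tested and LST8 above 66.2%. At 16 h LST8 stood above 85.2% and TOR1 above 5.05%. Over all strains and times LST8 varied most, 6.55-fold between the lowest and the highest group mean, and TOR2 least, 2.37-fold.

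**Figure D1:**
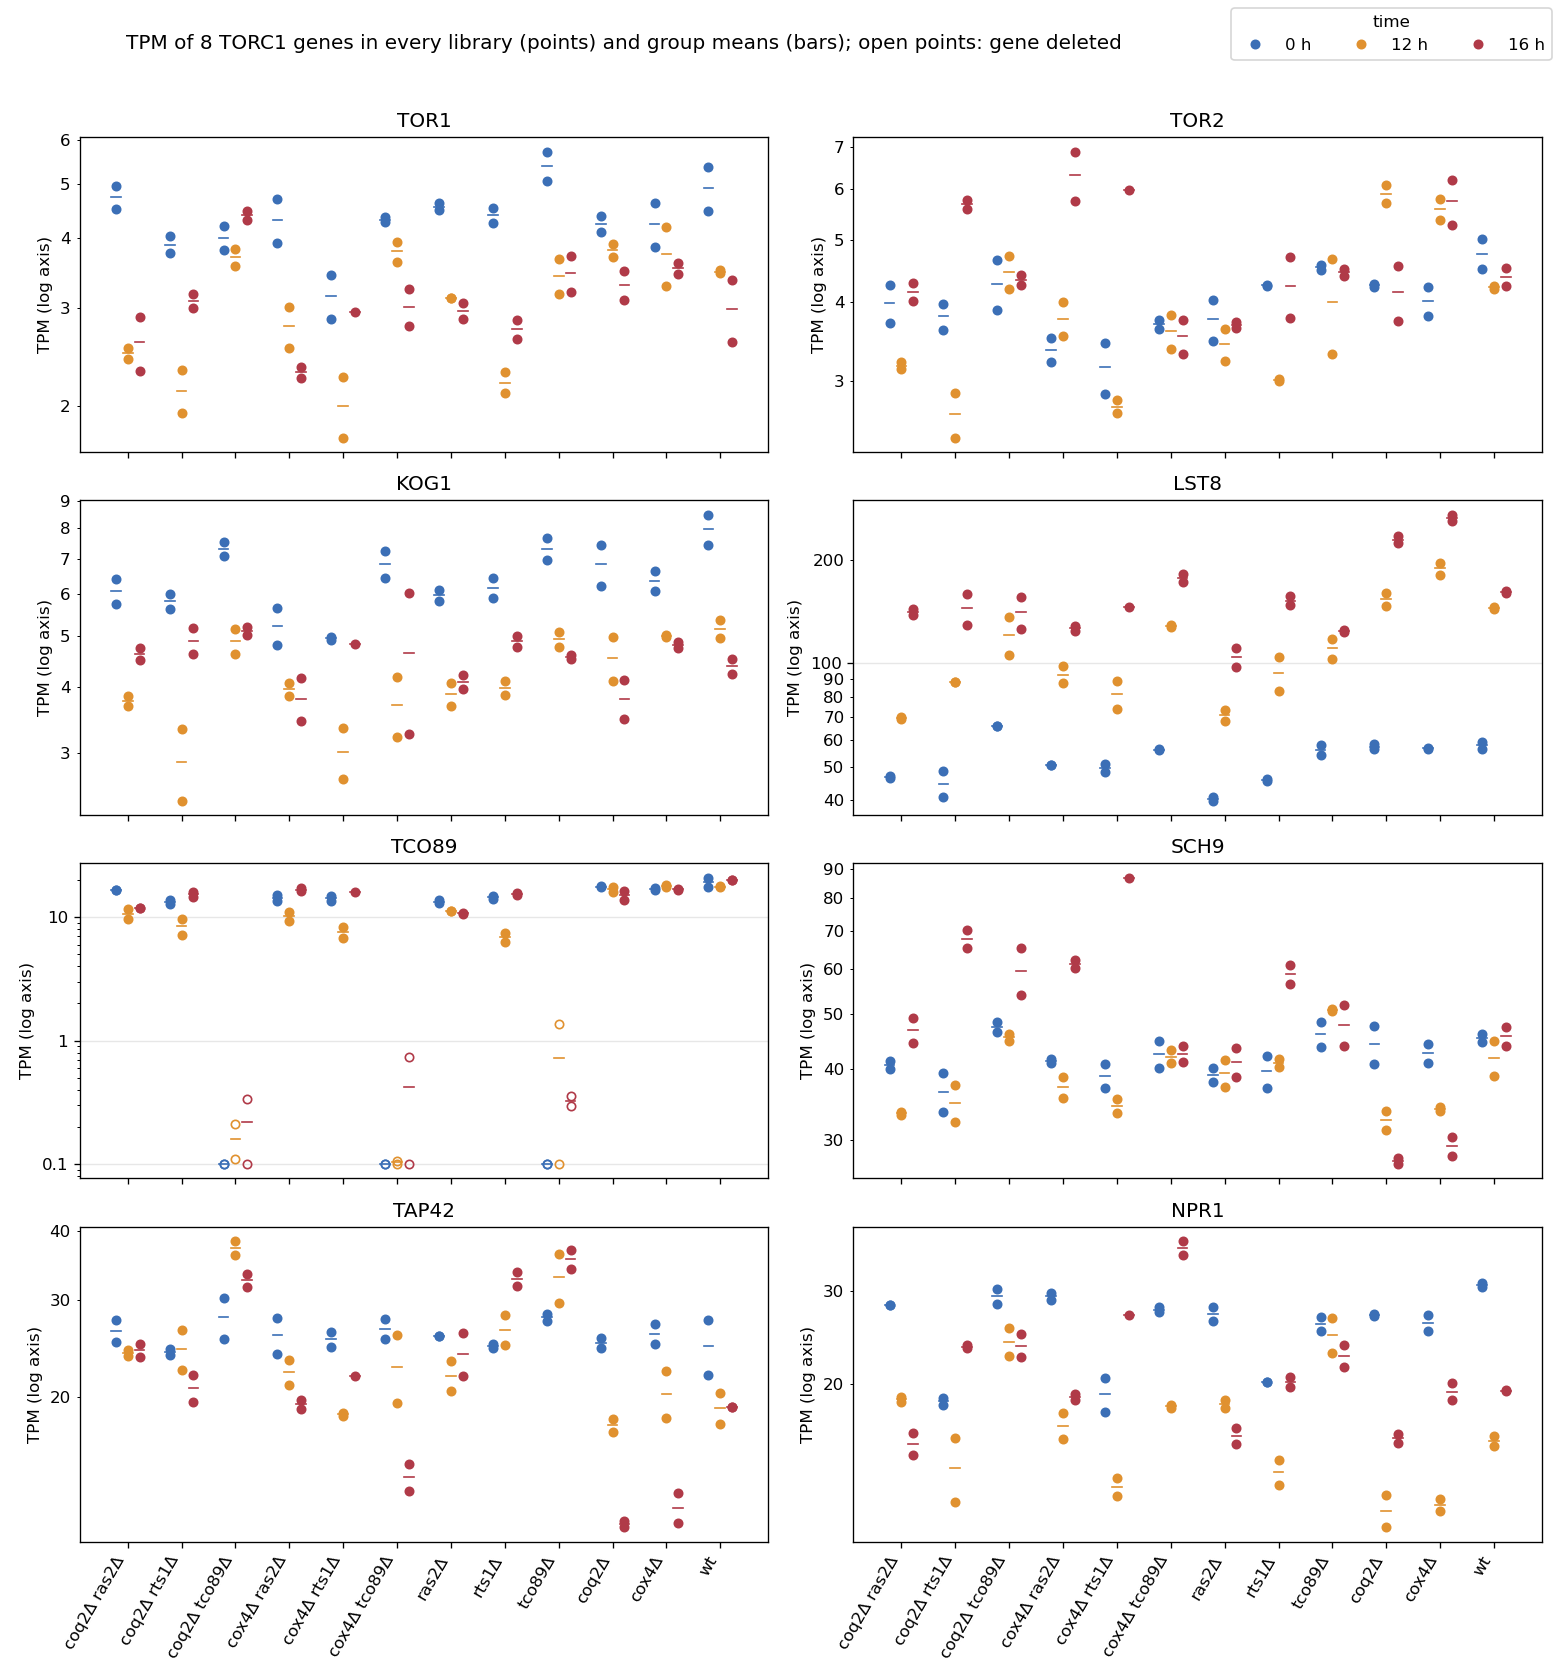
TPM (log axes) of the 8 genes in every library (points), with group means (bars), for 12 strains along the x axis and 3 times by colour; open points are TCO89 in strains that lack it. LST8 is higher at 16 h than at 0 h in every strain, and SCH9 and TAP42 at 16 h are lowest in coq2Δ and cox4Δ.

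In wild type, the passage from log phase through the diauxic shift left 1 of the 8 genes higher by over 2-fold, LST8, and none lower. Over the 3 pairs of times, 2 of 24 tests of a member passed the threshold, against 30.8% of all tests of all genes. The median log2 change of the 8 was -0.22 at 16 h against 0 h, and that of all genes was -0.24. Under median-ratio scaling that of the 8 was 0.045. At adjusted p under 0.05 alone, 11 of the 24 differed, against 57.8% of all tests.

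The kinase genes TOR1 and TOR2 encode paralogs. Tor1 works in TORC1, and Tor2 serves both TORC1 and the rapamycin-insensitive TORC2. TOR1 had 5.35 and 4.48 TPM at 0 h, 3.50 and 3.46 TPM at 12 h, and 3.36 and 2.60 TPM at 16 h in wt. The later libraries all lay below those of 0 h, with a log2 difference of -0.57 (SE 0.12, adjusted p = 5.4e-05) at 16 h, under 2-fold. TOR2 had 5.02 and 4.5 TPM at 0 h, 4.19 and 4.23 TPM at 12 h, and 4.23 and 4.52 TPM at 16 h, and neither later time passed an adjusted p of 0.05 against 0 h. The TPM ratio of TOR1 over TOR2 in wt averaged 1.03 at 0 h, 0.826 at 12 h and 0.684 at 16 h.

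Among the subunits, Kog1 recruits substrates to TORC1, Lst8 binds the kinase domain of Tor in both complexes, and Tco89 is found only in TORC1. KOG1 had 8.48 and 7.43 TPM at 0 h, 4.95 and 5.35 TPM at 12 h, and 4.52 and 4.24 TPM at 16 h, so the later libraries did not overlap with those of 0 h. Its log2 difference at 16 h was -0.73 (SE 0.14, adjusted p = 1e-05). LST8 went the other way, with 59.1 and 56.4 TPM at 0 h, 144 and 146 TPM at 12 h, and 162 and 160 TPM at 16 h. LST8 rose at 12 h (log2 1.31, SE 0.10, adjusted p = 4.3e-15) and at 16 h (log2 1.46, SE 0.10, adjusted p = 1.3e-16). The ratio of LST8 over KOG1 TPM averaged 7.28 at 0 h, 28.2 at 12 h and 36.8 at 16 h. TCO89 had 20.8 and 17.6 TPM at 0 h, 17.8 and 17.6 TPM at 12 h, and 20.0 and 20.1 TPM at 16 h. Its 0 h libraries spanned those of both later times, which did not overlap each other.

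Of the effectors, SCH9 encodes the kinase that TORC1 phosphorylates to promote ribosome synthesis, TAP42 the phosphatase partner, and NPR1 a kinase that protects amino acid and ammonium permeases when TORC1 is low. SCH9 in wt had 46.2 and 44.7 TPM at 0 h, 38.8 and 44.9 TPM at 12 h, and 47.5 and 44.0 TPM at 16 h, with overlapping groups. TAP42 had 27.6 and 21.9 TPM at 0 h and 19.2 TPM in both libraries at 16 h, a log2 difference of -0.34 (SE 0.12, adjusted p = 0.0072) that was -0.06 under median-ratio scaling. NPR1 had 31.1 and 30.5 TPM at 0 h, 15.3 and 15.9 TPM at 12 h, and 19.5 and 19.4 TPM at 16 h. At 12 h it came close to the threshold without reaching it (log2 -0.94, SE 0.09, adjusted p = 2.6e-12), and at 16 h it was again higher than at 12 h (log2 0.30, SE 0.09, adjusted p = 0.03).

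LST8 rose in all 12 strains between 0 and 16 h, by 2.11-fold in coq2Δ tco89Δ to 4.61-fold in cox4Δ. Of all genes tested, 4.34% (250) rose in each of the 12 strains over the same interval. In the electron transport mutants its level at 16 h was 259 and 270 TPM in cox4Δ and 223 and 234 TPM in coq2Δ, against 162 and 160 TPM in wt. The difference from wt was under 2-fold in TPM (cox4Δ log2 0.72, SE 0.10, adjusted p = 1.7e-07; coq2Δ log2 0.50), and under median-ratio scaling cox4Δ passed the threshold at 1.02. Among the double mutants at 16 h LST8 had 139 and 143 TPM in coq2Δ ras2Δ, 130 and 160 TPM in coq2Δ rts1Δ, 126 and 156 TPM in coq2Δ tco89Δ, 129 and 124 TPM in cox4Δ ras2Δ, 146 TPM in the lone cox4Δ rts1Δ library and 172 and 181 TPM in cox4Δ tco89Δ. All 11 of these libraries lay below those of the parent electron transport mutants. The 16 h rise in coq2Δ tco89Δ (log2 1.08, adjusted p = 1.9e-12) was 0.93 without 1 of its 16 h libraries, and the rise in cox4Δ tco89Δ was 1.64 with both libraries and 1.67 without the one that held COX4 reads.

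**Figure D2:**
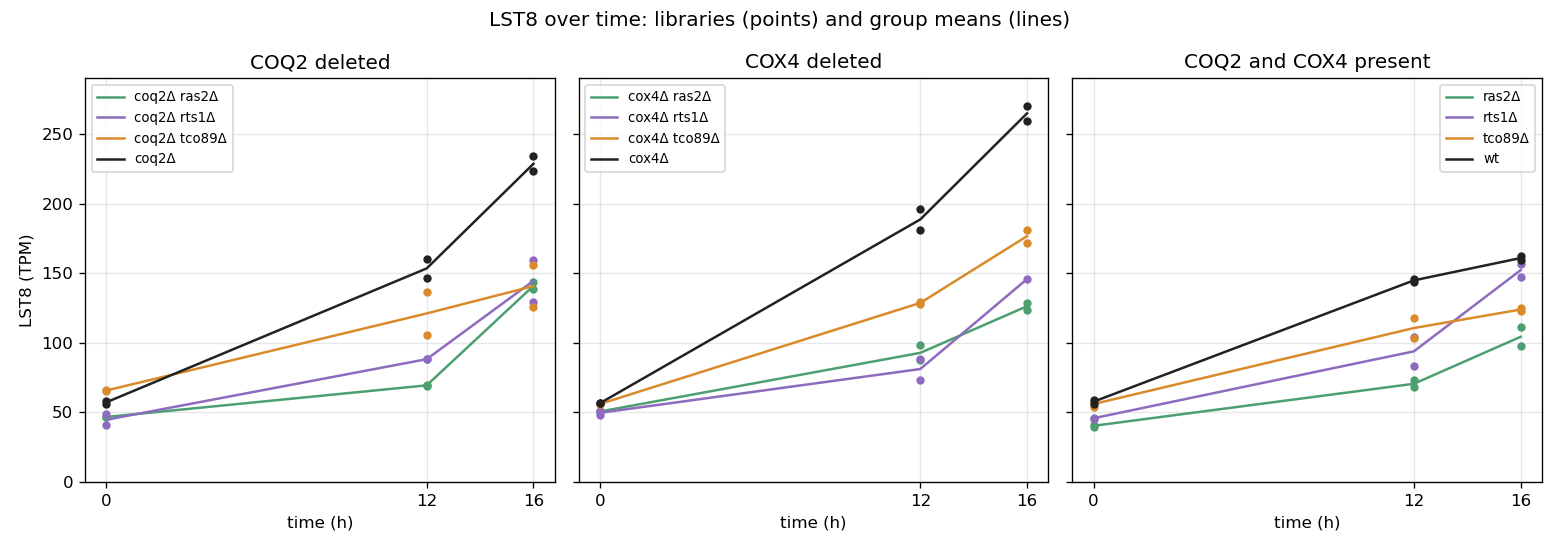
LST8 TPM (y axis) at 0, 12 and 16 h (x axis) in libraries (points) and group means (lines), in strains lacking COQ2 (left), lacking COX4 (middle) or having both genes (right). At 16 h coq2Δ and cox4Δ reach 223 to 270 TPM, above every other strain, and ras2Δ has the lowest values, 97.6 and 111 TPM.

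Strains differed in LST8 at 12 h too. LST8 at 12 h was 68.0 and 73.2 TPM in ras2Δ, against 144 and 146 TPM in wt (log2 -1.03, SE 0.10, adjusted p = 1.9e-11), and it fell past the threshold. That call was lost under median-ratio scaling (-0.83), quantile normalization (-0.76), a pseudocount of 5 (-0.99) and without 1 ras2Δ library (-0.97). Against its electron transport parent, LST8 at 12 h fell in coq2Δ ras2Δ (69.1 and 69.8 TPM, against 147 and 160 TPM in coq2Δ, log2 -1.13, SE 0.10, adjusted p = 1.2e-12). It also fell in cox4Δ rts1Δ (73.7 and 88.8 TPM, against 181 and 196 TPM in cox4Δ, log2 -1.21, SE 0.10, adjusted p = 2.3e-13), where median-ratio scaling gave -0.84. In cox4Δ ras2Δ it fell at 12 h (87.5 and 98.1 TPM, log2 -1.02) and at 16 h (log2 -1.06, SE 0.10, adjusted p = 1e-11). The 12 h value in cox4Δ ras2Δ was -0.94 without 1 of its libraries, -0.96 without 1 cox4Δ library and -0.95 under median-ratio scaling. At 0 h LST8 ranged from 39.9 to 65.9 TPM over all 24 libraries.

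The kinase gene TOR1 and the subunit gene KOG1 had lower levels at 12 h than in log phase. KOG1 was lower at 12 h than at 0 h in all 12 strains, by log2 differences of -0.82 to -0.29, and 11 of the 12 had an adjusted p under 0.05, against 78.3% of all such tests of all genes. TOR1 was also lower in all 12, by -0.75 to -0.09, with 8 of 12 at that level. None of these differences reached 2-fold, and under median-ratio scaling TOR1 ran from -0.40 to 0.32 and KOG1 from -0.46 to 0.01, so the direction was not kept in every strain. The ratio of LST8 over KOG1 at 16 h averaged 60.7 in coq2Δ and 55.1 in cox4Δ, against 36.8 in wt. In the double mutants it lay between 27.5 in coq2Δ tco89Δ and 41.4 in cox4Δ tco89Δ. In cox4Δ tco89Δ the 2 libraries differed, with KOG1 at 3.26 TPM in the library that held COX4 reads and 6.03 TPM in the other, and ratios of 52.8 and 30.1.

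TOR2, the kinase gene shared with TORC2, was higher at 12 h in the electron transport mutants than in wt, by under 2-fold. It then had 5.70 and 6.09 TPM in coq2Δ and 5.37 and 5.79 TPM in cox4Δ, against 4.19 and 4.23 TPM in wt, with log2 differences of 0.40 (SE 0.12, adjusted p = 0.0053) and 0.34 (SE 0.12, adjusted p = 0.024). At 12 h it had 2.45 and 2.88 TPM in coq2Δ rts1Δ, a log2 difference of -0.91 from coq2Δ (SE 0.12, adjusted p = 1.6e-08). At 16 h mean TOR2 was highest in cox4Δ ras2Δ, with 5.76 and 6.88 TPM, and mean TOR1 lowest in the same strain, with 2.24 and 2.35 TPM. Both overlapped with the next strain, cox4Δ rts1Δ for TOR2 (5.98 TPM, 1 library) and coq2Δ ras2Δ for TOR1 (2.31 and 2.89 TPM). The TOR1 over TOR2 ratio in cox4Δ ras2Δ averaged 0.366, against 1.01 in coq2Δ tco89Δ, the strain with the highest TOR1 at 16 h (4.31 and 4.47 TPM). TOR1 in coq2Δ tco89Δ was above coq2Δ by 0.33 (SE 0.12, adjusted p = 0.018), which became -0.034 under median-ratio scaling. KOG1 in the same comparison was 0.35 and became -0.022.

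At an adjusted p under 0.05, TCO89 was lower than in wt in rts1Δ at 12 h and in ras2Δ at all 3 times. Against the electron transport parent it was lower at that level in 4 of 12 tests of double mutants. In the 18 libraries of strains that lack it, it was between 0.1 and 1.36 TPM, and in the other 53 between 6.29 and 20.8 TPM. In rts1Δ at 12 h it had 6.29 and 7.49 TPM, against 17.6 and 17.8 TPM in wt, and fell (log2 -1.25, SE 0.18, adjusted p = 9.1e-08). Without the library that held RTS1 reads the value was -1.14, and under median-ratio scaling it was -0.93, under 2-fold. In cox4Δ rts1Δ at 12 h it fell against cox4Δ, with 6.80 and 8.34 TPM against 17.6 and 18.3 TPM (log2 -1.15, SE 0.18, adjusted p = 4.7e-07), and median-ratio scaling gave -0.82. The coq2Δ rts1Δ value at 12 h was -0.92 from coq2Δ, under 2-fold, and -1.12 without the coq2Δ rts1Δ library that held COQ2 at 2.95 TPM. The coq2Δ library that held COQ2 at 2.27 TPM had TCO89 at 17.7 TPM, and the other coq2Δ library 15.9 TPM. Leaving out that coq2Δ library instead makes the difference smaller. By 16 h TCO89 in rts1Δ was at 15 and 15.7 TPM, a rise from 12 h of 1.05 (SE 0.18, adjusted p = 2.8e-06) that was 0.94 without the library that held RTS1 reads and 0.66 under median-ratio scaling. In ras2Δ it was lower than wt at all 3 times, most at 16 h (10.6 and 10.9 TPM, log2 -0.84, SE 0.18, adjusted p = 9.6e-05). The rts1Δ libraries also lay below those of wt at 0 h (limma adjusted p = 0.11) and 16 h (adjusted p = 0.079). At 12 h TCO89 had 9.67 and 11.7 TPM in coq2Δ ras2Δ, against 15.9 and 17.7 TPM in coq2Δ. It had 9.35 and 10.9 TPM in cox4Δ ras2Δ at 12 h, against 17.6 and 18.3 TPM in cox4Δ. In TPM, log2 differences from the electron transport parent at 16 h were -0.32 in coq2Δ ras2Δ (adjusted p = 0.11) and 0.025 in coq2Δ rts1Δ (adjusted p = 0.91). They were -0.0076 in cox4Δ ras2Δ (adjusted p = 0.98) and -0.063 in the lone cox4Δ rts1Δ library. Under median-ratio scaling coq2Δ rts1Δ turned to below coq2Δ, and coq2Δ ras2Δ lay further below coq2Δ than in TPM. TCO89 at 16 h was then at 0.0024 from wt in coq2Δ, -0.83 in ras2Δ and -0.47 in rts1Δ. From the suppressor single mutant it was at 0.17 in coq2Δ ras2Δ and 0.31 in coq2Δ rts1Δ.

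At 16 h SCH9 and TAP42 were low in both electron transport mutants. SCH9 had 27.2 and 27.9 TPM in coq2Δ and 28.1 and 30.4 TPM in cox4Δ, against 44.0 and 47.5 TPM in wt, the lowest groups of the 36. The log2 differences were -0.71 (SE 0.10, adjusted p = 3.8e-08) and -0.63 (SE 0.10, adjusted p = 5.1e-07), under 2-fold, and -0.30 and -0.33 under median-ratio scaling. The cox4Δ value was -0.58 without the library that held COX4 at 10.8 TPM. TAP42 had 11.6 and 12.0 TPM in coq2Δ and 11.8 and 13.4 TPM in cox4Δ, against 19.2 TPM in both wt libraries, log2 differences of -0.66 and -0.57 that were -0.26 and -0.28 under median-ratio scaling. Within coq2Δ TAP42 fell at 16 h, against 24.6 and 25.6 TPM at 0 h (log2 -1.03, SE 0.12, adjusted p = 1.1e-10). The difference was -0.999, just under 2-fold, without 1 of the 0 h libraries, and -0.38 under median-ratio scaling. For SCH9, the 0 to 16 h change in coq2Δ differed from the wt change by -0.67 (adjusted p = 9.7e-05) and in cox4Δ by -0.54 (adjusted p = 0.0013), neither 2-fold.

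The double mutants had more SCH9 RNA at 16 h than their electron transport parents in all 6 pairs, and 4 of the 6 passed the threshold. Of all such tests of all genes at 16 h 17.5% passed in either direction, and of those of the members 6 of 46 did. SCH9 had 65.5 and 70.3 TPM in coq2Δ rts1Δ and 54.0 and 65.3 TPM in coq2Δ tco89Δ, against 27.2 and 27.9 TPM in coq2Δ (log2 1.27, SE 0.10, adjusted p = 9.3e-15, and 1.08, SE 0.10, adjusted p = 8.2e-13). It had 60.3 and 62.4 TPM in cox4Δ ras2Δ and 87.0 TPM in the lone cox4Δ rts1Δ library, against 28.1 and 30.4 TPM in cox4Δ (log2 1.05, SE 0.10, adjusted p = 2.2e-12, and 1.54, SE 0.12, adjusted p = 2.1e-14). The cox4Δ rts1Δ value has no second library. In coq2Δ ras2Δ (44.5 and 49.1 TPM, log2 0.74) and cox4Δ tco89Δ (41.2 and 44.0 TPM, log2 0.53) it did not reach 2-fold. The cox4Δ tco89Δ value was 0.57 without the library that held COX4 reads. Under median-ratio scaling coq2Δ tco89Δ (0.64) and cox4Δ ras2Δ (0.98) no longer reached 2-fold, under quantile normalization coq2Δ rts1Δ did not either (0.98), and leaving out 1 library gave 0.95 for coq2Δ tco89Δ and 0.99 for cox4Δ ras2Δ, where the library left out was the cox4Δ one that held COX4 at 10.8 TPM. The double-mutant comparisons of a parent share its libraries.

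**Figure D3:**
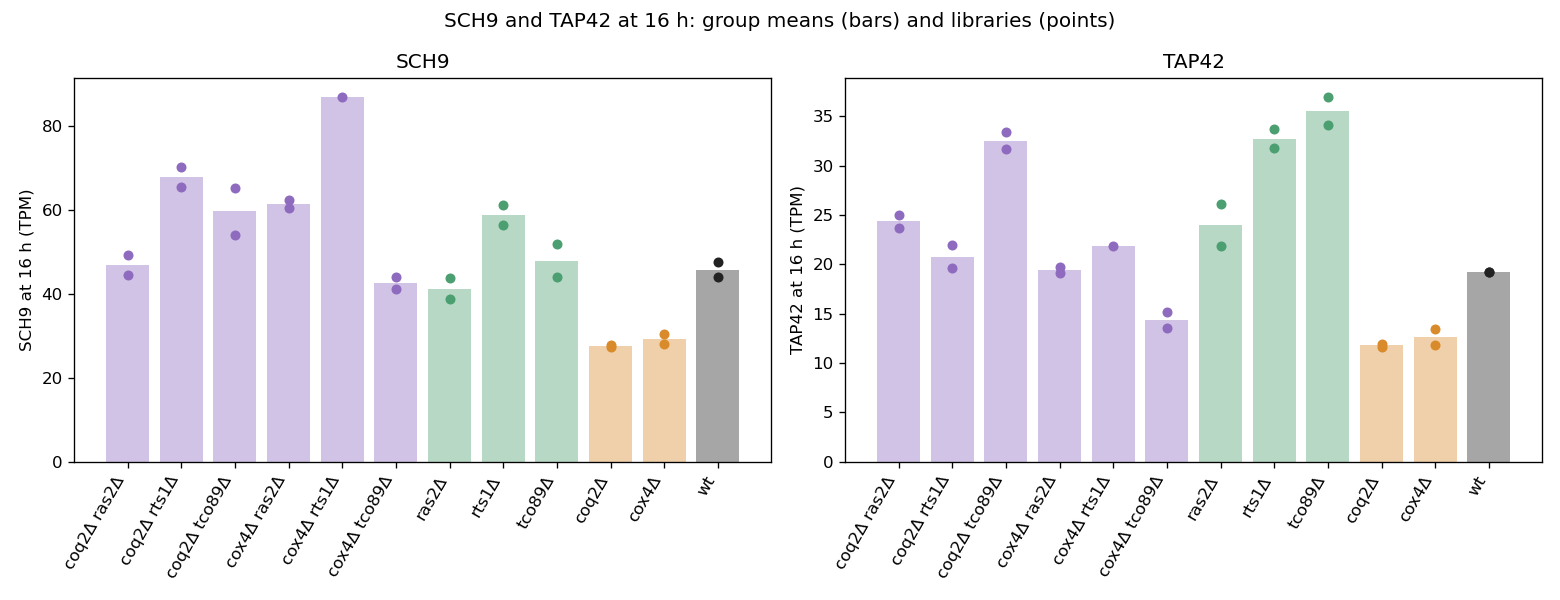
SCH9 (left) and TAP42 (right) at 16 h in TPM (y axes, from 0), as group means (bars) and libraries (points) for 12 strains; purple marks double mutants, green suppressor single mutants, orange electron transport single mutants and grey wt. For SCH9 the double-mutant libraries start at 41.2 TPM and the coq2Δ and cox4Δ libraries end at 30.4 TPM; for TAP42 the lowest double mutant is cox4Δ tco89Δ, at 13.5 and 15.1 TPM.

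The effect of losing COQ2 or COX4 on SCH9 differed with and without a suppressor. At 16 h cox4Δ ras2Δ was above ras2Δ, 38.8 and 43.6 TPM, by 0.57, where cox4Δ was below wt, and the difference of these differences was 1.20 (SE 0.14, adjusted p = 1.1e-09). It was 1.19 for cox4Δ rts1Δ (SE 0.15, adjusted p = 7.6e-08, 1 library) and 1.02 for coq2Δ tco89Δ (SE 0.14, adjusted p = 7.8e-08). These 3 were the members' calls among 138 tests of such a difference, against 6.98% of all tests of all genes. The coq2Δ tco89Δ value fell under 2-fold under median-ratio scaling (0.73) and without 1 wt library (0.97), 1 tco89Δ library (0.90) or 1 coq2Δ tco89Δ library (0.89). The same term for SCH9 in coq2Δ ras2Δ, coq2Δ rts1Δ and cox4Δ tco89Δ was 0.89, 0.92 and 0.47, each with an adjusted p under 0.05. The 0.47 of cox4Δ tco89Δ was 0.51 without its library that held COX4 at 72.3 TPM.

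TAP42 was high in tco89Δ, rts1Δ and coq2Δ tco89Δ. At 16 h it had 34.1 and 37.0 TPM in tco89Δ and 31.7 and 33.7 TPM in rts1Δ, against 19.2 TPM in both wt libraries, log2 differences of 0.86 (SE 0.12, adjusted p = 5e-08) and 0.74 (SE 0.12, adjusted p = 9.5e-07), under 2-fold. In coq2Δ tco89Δ it rose against coq2Δ at 12 h (36.2 and 38.3 TPM, against 17.3 and 18.3 TPM, log2 1.03, SE 0.12, adjusted p = 3.6e-10) and at 16 h (31.6 and 33.4 TPM, against 11.6 and 12.0 TPM, log2 1.39, SE 0.12, adjusted p = 1.2e-13). The 12 h value was 0.99, under 2-fold, without the coq2Δ library that held COQ2 at 2.27 TPM. It was 0.98 without 1 coq2Δ tco89Δ library, and median-ratio scaling gave 0.58 at 12 h and 0.96 at 16 h. In cox4Δ tco89Δ at 16 h TAP42 was at 13.5 and 15.1 TPM and fell against tco89Δ (log2 -1.26, SE 0.12, adjusted p = 1.2e-12). That value was -1.18 without the library that held COX4 reads and -0.53 under median-ratio scaling. In TPM 1 of 138 member tests of a double mutant against its suppressor single mutant passed the threshold, this one, against 6.32% of all tests. Under median-ratio scaling LST8 (1.26, and 0.51 in TPM) and NPR1 (1.40, and 0.66 in TPM) passed in cox4Δ tco89Δ against tco89Δ at 16 h in its place.

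NPR1 was lower at 12 h than at 0 h in all 12 strains, by log2 -1.16 in coq2Δ to -0.07 in tco89Δ. Under median-ratio scaling the range was -0.74 to 0.10, so that the direction was not kept in every strain. It fell in coq2Δ (10.7 and 12.3 TPM at 12 h, 26.9 and 27.1 TPM at 0 h, log2 -1.16, SE 0.09, adjusted p = 3.1e-15) and in cox4Δ (11.5 and 12.1 TPM at 12 h, 25.2 and 27.0 TPM at 0 h, log2 -1.08, SE 0.09, adjusted p = 3.4e-14), by -0.64 and -0.74 under median-ratio scaling. In tco89Δ it had 22.9 and 26.6 TPM at 12 h, against 15.3 and 15.9 TPM in wt (log2 0.63, SE 0.09, adjusted p = 1.8e-07). The highest NPR1 of the series was in cox4Δ tco89Δ at 16 h, 35 and 37.3 TPM, against 18.6 and 20.1 TPM in cox4Δ (log2 0.87, SE 0.09, adjusted p = 1.3e-10; 0.91 without the library that held COX4 reads). Its change from 0 to 16 h there exceeded that of wt by 1.01 (SE 0.13, adjusted p = 1.7e-08), which was 1.06 without the library that held COX4 reads, 0.97 without the other, 0.997 without 1 wt library of 0 h and 0.996 without 1 cox4Δ tco89Δ library of 0 h. In rts1Δ at 0 h NPR1 had 20.2 TPM in both libraries, against 30.5 and 31.1 TPM in wt, and coq2Δ rts1Δ (18.3 and 18.8 TPM) and cox4Δ rts1Δ (17.7 and 20.6 TPM) were in the same range.

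In cox4Δ rts1Δ the single 16 h library was high for both effector kinases. SCH9 had 37.0 and 40.8 TPM at 0 h, 33.5 and 35.4 TPM at 12 h, and 87.0 TPM at 16 h, and its change from 0 to 16 h exceeded that of wt by 1.13 (SE 0.15, adjusted p = 1e-07). NPR1 had 17.7 and 20.6 TPM at 0 h, 12.3 and 13.3 TPM at 12 h, and 27.0 TPM at 16 h, with an excess over wt of 1.12 (SE 0.15, adjusted p = 4.2e-08). The rise of NPR1 from 12 to 16 h was 1.02 (SE 0.11, adjusted p = 1.8e-10), 0.97 without 1 of the 12 h libraries and 0.72 under median-ratio scaling. These values assume that the lone library varies like the libraries of other groups. With the cox4Δ tco89Δ value of NPR1, they were the 3 member calls among 170 tests of a time change against that of wt, against 15.7% of all tests.

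The members' calls are next set beside the share of all tests of all genes that passed. In single mutants against wt 2 of 117 member tests passed, against 8.44% of all tests, and 41 had an adjusted p under 0.05 alone, against 44.8%. In double mutants against their electron transport parent 11 of 138 passed, against 12.7%. Of the 11, 6 were higher and 5 lower, where 8.05% of all tests were higher and 4.67% lower, and 65 had an adjusted p under 0.05 alone, against 52.2%. In the time courses of the 11 mutants 23 of 255 passed, against 31.6%, and 148 had an adjusted p under 0.05 alone, against 70.5%. Of the 23, 20 were higher and 3 lower, where 11.5% of all tests were higher and 20.1% lower, and 16 of the 20 were LST8. At 0 h limma called none of the 39 member tests of single mutants against wt (11 had an unadjusted p under 0.05), against 2.05% of all tests, and none of the 46 of double mutants against their electron transport parent (9 had an unadjusted p under 0.05), against 3.87%. The median log2 difference of the members at 16 h was -0.22 in coq2Δ against wt, where that of all genes was -0.39, and 0.05 in cox4Δ against wt, where that of all genes was -0.31. Under median-ratio scaling the members' medians were 0.15 and 0.33.

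**Figure D4:**
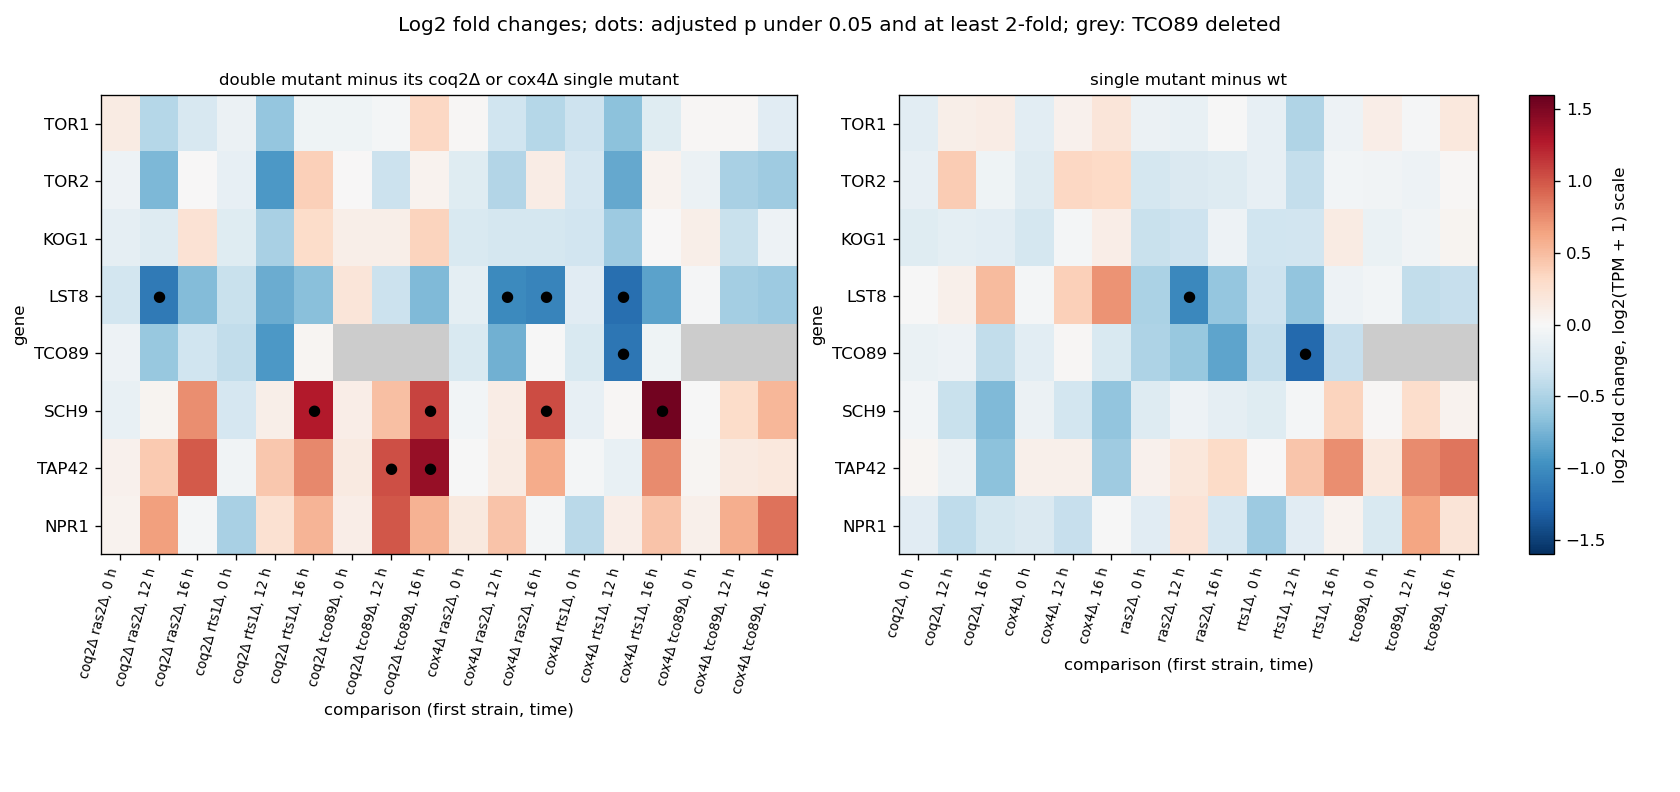
Log2 fold changes (colour, log2(TPM + 1) scale) of the 8 genes (rows) in double mutants minus their coq2Δ or cox4Δ parent (left) and single mutants minus wt (right) at 3 times (columns); dots mark an adjusted p under 0.05 with at least 2-fold, grey marks deleted TCO89. Dots fall on LST8 (lower, 12 and 16 h), TCO89 (lower, 12 h), SCH9 (higher, 16 h) and TAP42 (higher, 12 and 16 h), and at 0 h there is no dot.

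Strains that lack the subunit Tco89 were set against the mean of those that lack Ras2 or Rts1 in the same background. Of 63 member tests, limma called 0 at the threshold, against 6.72% of all tests, with 34 at an adjusted p under 0.05, against 57.4%, and 37 at an unadjusted p under 0.05. Under median-ratio scaling NPR1 passed in cox4Δ tco89Δ at 16 h (1.05, and 0.65 in TPM), where 1 library held COX4 reads. The 2 electron transport mutants were close to each other. Of 24 member tests of coq2Δ against cox4Δ limma called 0, against 0.416% of all tests, with 1 at an adjusted p under 0.05, against 5.64%, and 4 at an unadjusted p under 0.05. That 1 was TOR2 at 16 h, with 3.73 and 4.56 TPM in coq2Δ and 5.28 and 6.21 TPM in cox4Δ (log2 -0.39, SE 0.12, adjusted p = 0.041). For SCH9 at 16 h the difference was -0.08 with a 95% confidence interval of -0.28 to 0.12. For LST8 at 16 h it was -0.21 (SE 0.10, adjusted p = 0.24).

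Genes whose group means followed a member most closely over the 36 groups (27 for TCO89) are named as a description, by Pearson's correlation of log2(TPM + 1), and groups share libraries' scaling and the time course. LST8 was closest to APJ1, an Hsp40 chaperone (0.970), TRS23 (0.969) and CUP1-1, a metallothionein with repeated copies (0.963). TOR1 was closest to genes of mRNA decay, DCP2 (0.896), PAN2 (0.891) and XRN1 (0.875), and TOR2 to CDC40 (0.843), MSN5 (0.839) and GPB2 (0.837). KOG1 was closest to NET1 (0.936), DAL81 (0.918) and CCT2 (0.916), and TCO89 to BNI1 (0.952), CAB3 (0.951) and RPN11 (0.951). SCH9 was closest to SKN7 (0.917), the next gene on the chromosome, which begins 894 bases after the end of SCH9 on the same strand, then UBS1 (0.865) and NFS1 (0.853). TAP42 was closest to SIW14 (0.934), PEP8 (0.922) and SBE2 (0.892), and NPR1 to MOT3 (0.807), SKG3 (0.790) and MIT1 (0.786). Among the members themselves KOG1 and TOR1 correlated at 0.837, TOR1 and TOR2 at 0.263, and LST8 and KOG1 at -0.473.

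The pathway around TORC1 was described with 10 lists of 100 genes, of which 99 were tested, chosen with earlier results of these data known. In wt at 16 h against 0 h, where 17.7% of all genes rose and 28.9% fell, 6 of 11 autophagy genes rose, with a list median of 1.23 against -0.24 for all genes. ATG8, the ubiquitin-like protein of the autophagosome, rose by 3.79 (SE 0.11, adjusted p = 2e-30), and ATG11 and ATG29 by 1.88 and 1.46. Of 5 regulators of nitrogen catabolite repression 3 fell, DAL80 by -3.36, GZF3 by -1.65 and GAT1 by -1.63. Of their 18 targets 7 fell, led by the general amino acid permease GAP1 (-5.39) and the ammonium permease MEP2 (-5.18), and 3 rose, UGA4 (2.29), AGP1 (1.77) and PUT1 (1.69). Of 13 transcription and quiescence regulators under Sch9 and TORC1 5 rose, among them DOT6 (2.77), MSN4 (2.26) and IGO1 (2.02), and MSN2 fell (-1.17). Of 14 genes of the Tap42 phosphatase branch TIP41 (1.65) and SAP155 (1.51) rose and SAP190 (-2.02), PPH3 (-1.40) and SAP4 (-1.1) fell. Of 9 TORC2 genes YPK2 (2.50) and BIT2 (1.05) rose, of 8 SEA complex genes SEC13 (-1.48) and SEA4 (-1.22) fell, and of 9 genes of the EGO complex and its partners GTR1 fell (-1.20). Under median-ratio scaling the falls of GTR1 (-0.91), SEA4 (-0.95), SAP4 (-0.86) and MSN2 (-0.88) were under 2-fold, and 8 of the 11 autophagy genes rose. Limma called 0 of 6 arrestin and ubiquitin ligase genes under Npr1, with 6 at an unadjusted p under 0.05, and 0 of 6 kinases and assembly factors, with 4.

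In tco89Δ against wt at 0 h, where 1.08% of all genes fell, 8 of 18 targets of nitrogen catabolite repression fell, with a list median of -0.79 against 0.04 for all genes. They included the proline oxidase gene PUT1 (-1.93, SE 0.09, adjusted p = 4.4e-22), the allantoate permease DAL5 (-1.80) and PUT4 (-1.49), and the repressor gene DAL80 fell by -2.29 (SE 0.19, adjusted p = 1.1e-12). Against the parent at 0 h, 2 of the 18 fell in coq2Δ tco89Δ and 2 in cox4Δ tco89Δ, with list medians of -0.67 in both against 0.06 for all genes, of which 0.295% and 0.382% fell. In tco89Δ against wt at 12 h, where 7.08% of all genes rose, 6 of the 18 targets rose. Among the 6 were AGP1 (2.12, SE 0.14, adjusted p = 2.6e-17), GAP1 (2.04) and MEP2 (1.59). The regulators GAT1 (1.32) and GZF3 (1.1) rose too. Under median-ratio scaling 5 of the 18 rose at 12 h, and GZF3 was at 0.96. In tco89Δ against wt at 16 h 5.6% of all genes rose and 4.41% fell. Of the targets 1 rose, GAP1 (1.08), and 1 fell, PUT4 (-1.04), and under median-ratio scaling GAP1 was at 0.93 and 2 fell. The 7 other members differed from wt by at most 0.86 on the log2 scale in tco89Δ at these times, TAP42 at 16 h.

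In the electron transport mutants at 16 h, 3 of 9 genes of the EGO complex and its partners fell in each strain. The EGO complex holds the Rag GTPases that recruit and activate TORC1 at the vacuole. MEH1 and EGO2, which encode subunits, and PIB2, which encodes a partner, fell by -1.28, -1.21 and -1.14 in coq2Δ and by -1.16, -1.13 and -1.08 in cox4Δ, where 12.3% and 9.52% of all genes fell. Both strains share the wt libraries. Under median-ratio scaling none of the 9 passed the threshold in either strain, and these 3 lay between -0.87 and -0.73. In coq2Δ tco89Δ against coq2Δ at 16 h 5 of the 9 rose, among them EGO2 (1.35, SE 0.20, adjusted p = 1.1e-07), PIB2 (1.33) and SLM4 (1.33), against 16.4% of all genes, with a list median of 1.02 against 0.40. Under median-ratio scaling 0 of the 9 passed there, with a list median of 0.58, and 1 did under quantile normalization.

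Of the 14 genes of the Tap42 phosphatase branch 2 fell in coq2Δ against wt at 16 h and 2 in cox4Δ, with list medians of -0.35 and -0.20 against -0.39 and -0.31 for all genes. They were PPH22 and PPH3, whose products bind Tap42, at -1.18 and -1.53 in coq2Δ and at -1.27 and -1.21 in cox4Δ. Under median-ratio scaling PPH3 in coq2Δ alone passed the threshold. In coq2Δ tco89Δ against coq2Δ 4 of the 14 rose, among them PPH22 (1.93) and PPH3 (1.75), with a list median of 0.40, as for all genes, and under median-ratio scaling 2 rose and 1 fell.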

How the data were processed

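Stranded libraries of poly(A) RNA were sequenced on an Illumina instrument, per the labels' protocols. The tools bcl2fastq 2.20.0.422, Salmon 0.9.1 and build sacCer3 are named, without order, in the submitters' processing notes. The authors deposited TPM per gene, with 0.1 as the lowest value. Of 2 deposited tables with the same values 1 was used. TPM keeps no read counts, so depth per library is unknown and no counting interval is given.

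The 71 libraries formed 36 groups by strain and time. Of 5803 genes, 5766 reached 1 TPM in 2 or more libraries and were tested, and 37 were removed. Log2(TPM + 1) was fitted with limma 3.58.1 in R 4.3.3, with 1 mean per group, an intensity trend and 35 residual degrees of freedom, and p-values were adjusted by Benjamini-Hochberg within each of 139 comparisons. The procedure was tested on simulated data. Alternatives were pseudocounts of 0.5 and 5, no filter, median-ratio scaling, quantile normalization, no trend, fits of only the libraries compared, and leaving out each library.

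The members and gene lists were chosen with earlier results of these data known. Every member was described, and listed genes were named where they passed the threshold. Of 5803 identifiers 5779 were found in the R64 annotation. Sequences came from the R64 reference genome, and copies were searched with blastn 2.17.0.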

Additional observations from a re-analysis of the deposited data

Results flagged for a closer look

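In 6 cases the effect of one condition on SCH9 or NPR1 differed between strains by at least 2-fold, each tested by an interaction term in limma at an adjusted p under 0.05. The change from 0 to 16 h exceeded that of wt by 1.13 (log2) for SCH9 and by 1.12 for NPR1 in cox4Δ rts1Δ, where 16 h is 1 library. It exceeded that of wt by 1.01 for NPR1 in cox4Δ tco89Δ, where 1 of the 16 h libraries held COX4 at 72.3 TPM. For SCH9 at 16 h, the effect of losing COQ2 or COX4 was higher in a suppressor strain than in wt by 1.02 for coq2Δ tco89Δ, by 1.20 for cox4Δ ras2Δ and by 1.19 for cox4Δ rts1Δ. The part of the lone library, of the COX4 signal and of the shared wt, coq2Δ and cox4Δ libraries in these differences was not tested beyond the values without single libraries given above.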

How the results depend on the processing

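At an adjusted p under 0.05 alone, with no fold minimum, the members' calls were 11 in the wt time course, 41 in single mutants against wt, 65 in double mutants against their electron transport parent, 27 against their suppressor single mutant, 148 in the mutant time courses, 50 for time changes against that of wt, 29 for the effect of COQ2 or COX4 loss with and without a suppressor, 34 for tco89Δ strains against the other suppressors and 1 for coq2Δ against cox4Δ. A pseudocount of 5 gave 0 calls in single mutants against wt, 6 in double mutants against their electron transport parent and 1 for time changes. Median-ratio scaling gave 1, 7 and, against the suppressor single mutant, 2 calls, and 1 for tco89Δ strains against the other suppressors. In single mutants against wt the 1 call was LST8 in cox4Δ at 16 h (1.02). LST8 in ras2Δ (-0.83) and TCO89 in rts1Δ (-0.93) no longer passed in that family. For tco89Δ strains against the other suppressors the 1 call was NPR1 in cox4Δ tco89Δ at 16 h (1.05, and 0.65 in TPM). Of the 7, 4 were calls in TPM too, and NPR1 at 16 h in cox4Δ tco89Δ (1.16) and LST8 at 16 h in coq2Δ ras2Δ (-1.05) and coq2Δ tco89Δ (-1.16) were not calls in TPM. Quantile normalization gave 1, 7 and 2 in the same 3 families and 1 for the effect of COQ2 or COX4 loss. Without single libraries the counts ran, in the order of the first sentence, over 2 to 2, 1 to 2, 10 to 12, 1 to 1, 22 to 24, 2 to 3, 2 to 3, 0 to 0 and 0 to 0. NPR1 in coq2Δ against wt at 16 h (-0.28) turned to 0.12 under median-ratio scaling and 0.10 under quantile normalization. TOR1 and KOG1 in coq2Δ tco89Δ against coq2Δ at 16 h turned to -0.034 and -0.022 under median-ratio scaling. The cause was not tested. Of 45 single-gene calls, 27 held under median-ratio scaling, 24 under quantile normalization, 28 with a pseudocount of 5, and all 45 with a pseudocount of 0.5, no filter, no trend and only the libraries compared. No paired analysis was possible because the columns carry no replicate number. Depth behind TPM is unknown.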
